A study of Mus musculus with 24 samples.

Results

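The 10 mRNAs described here encode translation elongation factors and other non-ribosomal proteins whose mRNAs are known as TOP mRNAs. They are Eef1a1, Eef1b2, Eef1d, Eef1g, Eef2, Tpt1, Npm1, Hnrnpa1, Nap1l1 and Rack1, and they were taken by gene symbol, with earlier results of these data known. All 10 were found in each of the 8 count tables, which list up to 12535 transcripts for RNA-seq and up to 11120 for ribo-seq, 1 canonical transcript per gene, and all 10 passed the filter on low counts in every table. Ribo-seq counts the mRNA fragments protected by translating ribosomes (footprints), and the translational efficiency (TE) is the footprint level of a transcript divided by its mRNA level.

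The cells were mouse neuroblastoma N2a cells. The control cells (ctrl) were transfected with the empty pSpCas9(BB)-Puro vector, which carries Cas9 and puromycin resistance. The KO cells were transfected with vectors for 3 gRNAs against exons 1, 2 and 4 of Eif4e3, the gene for the cap-binding protein eIF4E3. Both went through repeated transfection and puromycin selection, and isolation of a single clone is not described in the study's methods. Each was treated for 2 h with 250 nM Torin1, an inhibitor of the kinase mTOR, or with DMSO, and each of the 4 conditions was sampled at different passages as replicates 1 to 3. RNA-seq was used for 3 libraries per condition and ribo-seq for 3 libraries per condition except ctrl DMSO, where replicate 2 was not analysed here and n = 2.

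TOP mRNAs start directly after the cap with a cytosine that is followed by an uninterrupted run of pyrimidines, the 5′ terminal oligopyrimidine tract. Most encode ribosomal proteins and factors of translation, and as a class they are known as the mRNAs whose translation depends most closely on mTOR, through the 4E-BPs and LARP1. In elongation, eEF1A brings the aminoacyl-tRNA to the ribosome, the eEF1B subunits exchange its GDP for GTP, and eEF2 moves the ribosome on by 1 codon.

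The start of the transcript is where a TOP tract would lie, so the first bases are shown for members whose annotation holds one, and for the pair of members whose footprints fell most. A cytosine followed by at least 4 pyrimidines was searched on the mRNA strand in GENCODE M21 transcripts on GRCm38, the assembly also called mm10 that the study used. Capitals mark this run, and every position is given with the strand. Only the deposited transcript of Rack1 begins with it, against 2.24% of the 10469 transcripts found in all tables. When any annotated transcript of the gene was allowed, 6 of the 10 genes had a transcript that begins with it, against 11.1% of 10457 genes. These were 1 of 18 transcripts in Eef1d, 2 of 9 in Eef1b2, 1 of 8 in Tpt1, 1 of 7 in Nap1l1, 1 of 6 in Rack1 and 1 of 5 in Hnrnpa1. A gene with more annotated transcripts has more starts to match, and the share over all genes was not matched for this number. A run of this kind lay somewhere in the first 100 nt of the deposited transcript for 10 of 10 members and for 72.6% of all transcripts, so that measure separates little. Rack1 is shown at the start of its deposited transcript, Eef1b2, Eef1d, Tpt1, Hnrnpa1 and Nap1l1 at the start of another annotated transcript, and Eef1a1 and Eef2 inside the 5′ leader, where the run begins at nt 54 and nt 16 of the deposited transcript and 5 bases before it are printed.
Rack1, chr11:48800360-48800383 (+): CTTTTTCTCCacagggtcgtggtg
Eef1b2, chr1:63177129-63177152 (+): CCTTTTTTTCCCTCagcgctggcc
Eef1d, chr15:75909283-75909306 (-): CTCTCCTTTgcagtcctgagctcg
Tpt1, chr14:75845331-75845354 (+): CTTTTCCgcccgctcccccctccc
Hnrnpa1, chr15:103240454-103240477 (+): CTTTCTgctctttgacgctgccga
Nap1l1, chr10:111473227-111473250 (+): CTTTTTTagcgccatctgctcgcg
Eef1a1, chr9:78481653-78481676 (-): acgttCTTTTTCgcaacgggtttg
Eef2, chr10:81176641-81176664 (+): gcggtCTCTTCCgccgcagccgcc

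The runs measured 14 nt in Eef1b2, 10 nt in Rack1, 9 nt in Eef1d, 7 nt in Tpt1, Nap1l1, Eef1a1 and Eef2 and 6 nt in Hnrnpa1. In Nap1l1 the transcript with the run starts 4 nt after the deposited one, in Hnrnpa1 22 nt after it and in Eef1d 49 nt after it, whereas in Tpt1 and Eef1b2 the distance was 238 nt and 304 nt in the genome. The transcript with the run is annotated as a retained intron in Tpt1 and as a target of nonsense-mediated decay in Eef1b2. These are annotated starts, and the starts used in N2a cells were not measured by these libraries. The coding sequence (CDS) was longest in Eef2 with 2577 nt, followed by Eef1a1 with 1389 nt, and shortest in Tpt1 with 519 nt.

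The ribo-seq libraries held 669244 to 5285876 counts over 10680 transcripts and the RNA-seq libraries 17048192 to 28911595 over 12278. The shallowest was ctrl DMSO replicate 3 of the ribo-seq, and each member still had at least 181 footprint counts in it. Levels are given as CPM, counts scaled to the library size. Eif4e3 mRNA was at 12.0 to 18.2 CPM in the 6 ctrl libraries and at 2.89 to 5.04 CPM in the 6 KO libraries, with no overlap, and its footprints were at 11.6 to 22.0 CPM in ctrl and 2.29 to 6.61 CPM in KO. Of the neuronal and neuroblastoma markers, 8 were in the RNA-seq tables (not Nefl and Nefm) and their summed level was 1490 to 2250 CPM. Most of this sum was Tubb3, at 923 to 1550 CPM. The summed levels of fibroblast, Schwann cell and glia, and blood markers did not exceed 4.08 CPM. Of these markers only 2 of 5, 1 of 4 and 1 of 2 were in the tables. In bulk samples such as these, fewer cells with a transcript and less of it per cell cannot be told apart.

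In DMSO the 10 mRNAs together made up 2.33 to 2.66% of all footprints and 2.60 to 3.08% of all mRNA counts. With Torin1 they made up 0.576 to 0.638% of the footprints in the 6 libraries, and still 2.68 to 2.90% of the mRNA counts. Footprints and TE of all 10 were lower with Torin1 in ctrl cells and in KO cells, by a factor of 2.01 (Eef1d) to 12.0 (Eef2) for footprints in ctrl and of 2.05 (Eef1d) to 12.8 (Eef2) in KO. Every Torin1 library lay below every DMSO library of the same cells in footprints for 10 of 10, as it did for 21.9% of 10635 transcripts in ctrl and 25.2% of 10582 in KO. Their mRNA did not pass the test in either. Lower and higher here mean relative to the other transcripts of the libraries, and a change of total translation was not measured by these counts. In the study's polysome profiles, Torin1 reduced the heavy fraction, that of mRNAs with many ribosomes, in both cells.

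**Figure D1:**
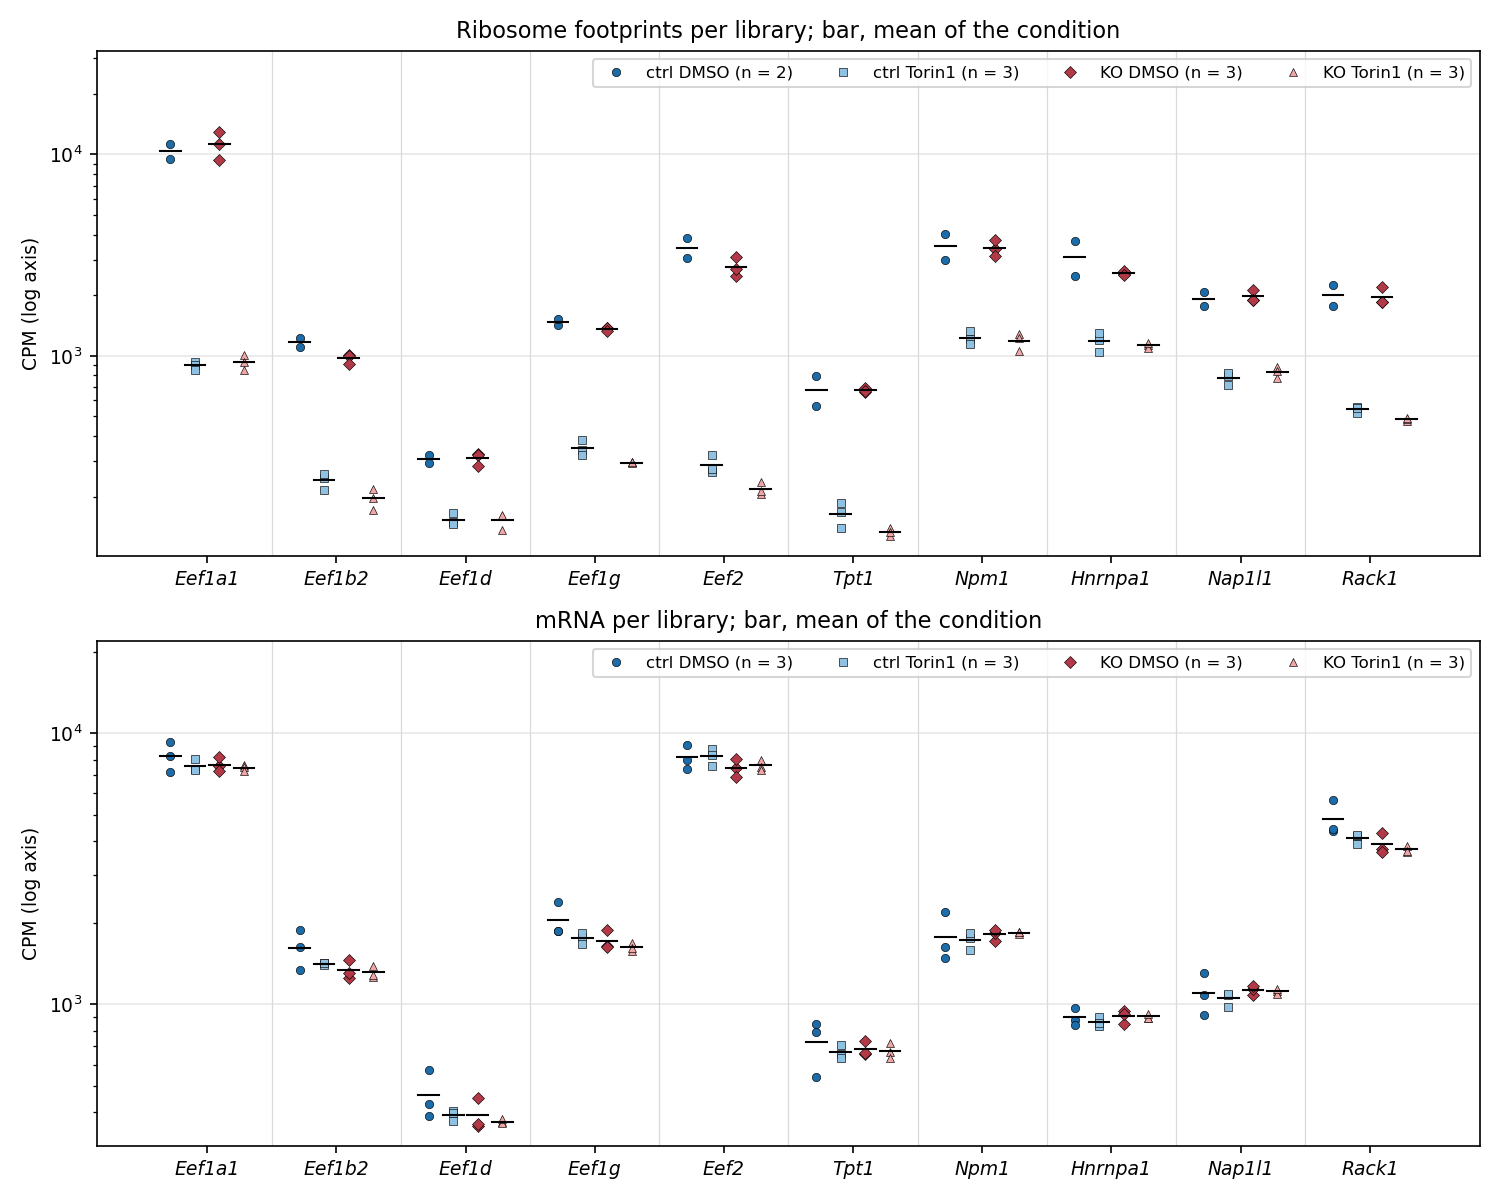
Footprint CPM (top) and mRNA CPM (bottom) of the 10 mRNAs in each library, on log axes, by condition, with the mean of the condition as a bar. For footprints every Torin1 library lies below every DMSO library of the same cells for all 10, while the mRNA points of the 4 conditions lie close together.

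Eef1a1 encodes the main eEF1A, and it had the most footprints per kb of CDS of the 10 in DMSO. Its footprints were at 11206 and 9547 CPM in ctrl DMSO and at 933, 903 and 854 CPM in ctrl Torin1. In KO cells they were at 9371, 11311 and 12992 CPM in DMSO and at 1006, 934 and 848 CPM with Torin1. The Torin1 libraries of both cells lay about an order of magnitude below the DMSO libraries. By edgeR's quasi-likelihood test the log2 fold change was -3.53 (SE 0.140, adjusted p = 1.69e-11) in ctrl and -3.61 (SE 0.122, adjusted p = 4.96e-21) in KO. TE of Eef1a1 fell from 1.26 ± 0.142 (SD, n = 2) to 0.118 ± 0.00526 (n = 3) in ctrl and from 1.47 ± 0.237 to 0.125 ± 0.0106 (n = 3 each) in KO. Eef1a1 made up 33.4 to 44.8% of the footprints of the 10 mRNAs in the DMSO libraries and 14.2 to 17.5% in the Torin1 libraries.

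Eef2, for the translocase eEF2, had the largest fall of the 10. Its footprints were at 3067 and 3831 CPM in ctrl DMSO and at 320, 264 and 275 CPM in ctrl Torin1, and at 2486, 2709 and 3092 CPM in KO DMSO and 206, 235 and 213 CPM in KO Torin1. The groups were far apart in both cells, and the KO Torin1 libraries were the lowest of all. The log2 fold change of footprints was -3.59 (SE 0.152, adjusted p = 2.79e-11) in ctrl and -3.68 (SE 0.118, adjusted p = 2.08e-21) in KO. Counted from the largest decrease, Eef2 and Eef1a1 had rank 4 and 5 among 10693 transcripts in ctrl and rank 11 and 12 among 10822 in KO. Eef2 mRNA was at 8141 ± 866 CPM in ctrl DMSO and 8225 ± 597 CPM in ctrl Torin1 (SD, n = 3 each), and after Torin1 its TE reached 0.0348 ± 0.00359 in ctrl and 0.0286 ± 0.00202 in KO (n = 3 each), the lowest of the 10 in both.

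The eEF1B subunits did not fall to the same degree. Eef1b2 encodes eEF1Bα, a GDP-GTP exchange factor of eEF1A. Its footprints were at 1110 and 1223 CPM in ctrl DMSO and 216, 247 and 258 CPM in ctrl Torin1, and at 1014, 997 and 911 CPM in KO DMSO and 197, 172 and 218 CPM in KO Torin1. Eef1g encodes eEF1Bγ, the subunit that holds the complex together. Its footprints were at 1419 and 1529 CPM in ctrl DMSO and 381, 341 and 321 CPM in ctrl Torin1, and at 1377, 1372 and 1332 CPM in KO DMSO and 297, 292 and 296 CPM in KO Torin1. Eef1b2 and Eef1g fell 4.23 to 5.05-fold over both cells, with log2 fold changes of -2.27 (SE 0.141) and -2.08 (SE 0.138) in ctrl and of -2.33 (SE 0.115) and -2.22 (SE 0.106) in KO.

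Eef1d encodes eEF1Bδ, the other exchange factor of the complex. Its footprints were at 323 and 293 CPM in ctrl DMSO and 150, 165 and 146 CPM in ctrl Torin1, and at 326, 320 and 283 CPM in KO DMSO and 160, 162 and 136 CPM in KO Torin1. The groups do not overlap, and the distance between them is the smallest of the 10. The log2 fold change was -1.01 (SE 0.142, adjusted p = 4.98e-05) in ctrl and -1.04 (SE 0.116, adjusted p = 9.57e-09) in KO, and the 95% intervals, -1.31 to -0.71 and -1.27 to -0.80, overlap neither those of Eef1b2 nor those of Eef1g. Per kb of CDS, the footprints of Eef1d were 0.297 to 0.368 times those of Eef1g in the DMSO libraries and 0.610 to 0.863 times those of Eef1g in the Torin1 libraries, whereas this ratio was 0.324 to 0.374 for mRNA in all 12 RNA-seq libraries. For Eef1b2 against Eef1g the footprint ratio was 1.33 to 1.55 in DMSO and 1.10 to 1.56 with Torin1. The decrease of Eef1d TE in ctrl, with a log2 fold change of -0.76 (SE 0.206), was the weakest call among the 10 (adjusted p = 0.0342, edgeR). Its adjusted p was 0.0743 without scaling beyond library size, and 0.0559 to 0.181 without RNA-seq ctrl DMSO replicate 1, ribo-seq ctrl DMSO replicate 1 or any 1 of the 3 ctrl Torin1 libraries of either assay.

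Among the members that are not elongation factors, Tpt1 and Rack1 fell most. Tpt1 encodes the translationally controlled tumour protein TCTP. Its footprints were at 797 and 563 CPM in ctrl DMSO and 186, 167 and 140 CPM in ctrl Torin1, and at 693, 660 and 666 CPM in KO DMSO and 140, 128 and 134 CPM in KO Torin1. The ctrl DMSO pair differ, and both are above the Torin1 libraries. The log2 fold change was -2.07 (SE 0.167) in ctrl and -2.35 (SE 0.113) in KO. Rack1 encodes a scaffold protein of the 40S subunit, and its footprints were at 2250 and 1772 CPM in ctrl DMSO and 554, 518 and 553 CPM in ctrl Torin1, and at 1855, 1854 and 2200 CPM in KO DMSO and 475, 488 and 493 CPM in KO Torin1. For Rack1 the log2 fold change was -1.90 (SE 0.141) in ctrl and -2.04 (SE 0.108) in KO.

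Npm1, Hnrnpa1 and Nap1l1 fell less. Npm1 encodes nucleophosmin, a nucleolar chaperone of ribosome assembly, and its footprints were at 2982 and 4017 CPM in ctrl DMSO and 1216, 1146 and 1334 CPM in ctrl Torin1, and at 3401, 3772 and 3119 CPM in KO DMSO and 1290, 1062 and 1222 CPM in KO Torin1. Hnrnpa1 encodes an RNA-binding protein of splicing, with 2500 and 3724 CPM in ctrl DMSO and 1043, 1199 and 1297 CPM in ctrl Torin1, and with 2561, 2635 and 2531 CPM in KO DMSO and 1130, 1092 and 1158 CPM in KO Torin1. Nap1l1 encodes a histone chaperone, with 1769 and 2069 CPM in ctrl DMSO and 713, 791 and 819 CPM in ctrl Torin1, and with 1897, 2131 and 1904 CPM in KO DMSO and 875, 773 and 841 CPM in KO Torin1. All Torin1 libraries lay below all DMSO libraries and the fitted decrease was 2.32 to 2.92-fold. The log2 fold changes in ctrl and KO were -1.50 (SE 0.148) and -1.55 (SE 0.109) for Npm1, -1.39 (SE 0.162) and -1.21 (SE 0.100) for Hnrnpa1 and -1.31 (SE 0.137) and -1.27 (SE 0.104) for Nap1l1.

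With p-values of the edgeR test adjusted over all transcripts by the Benjamini-Hochberg method (threshold 0.05), footprints of 10 of 10 were called lower in both cells. In ctrl 15.6% of 10693 transcripts were called (1062 lower and 608 higher), and in KO 40.6% of 10822 (2391 lower and 1999 higher). Called lower were 9.93% and 22.1%. The share called in ctrl was 6.74% without ribo-seq ctrl DMSO replicate 1, 8.11% without ctrl Torin1 replicate 2, 7.9% without ctrl Torin1 replicate 3 and 8.94% with DESeq2. For TE, 10 of 10 were also called lower in both cells, where 4.68% of 10432 transcripts were called in ctrl (448 lower and 40 higher, 4.29% lower) and 28.4% of 10535 in KO (1871 lower and 1119 higher, 17.8% lower and 10.6% higher). For TE the share called in ctrl was 7.85% without RNA-seq ctrl DMSO replicate 2 and 3.02% without ribo-seq ctrl DMSO replicate 1. The median log2 fold change of TE over the 10 was -1.77 in ctrl and -2.06 in KO, against -0.01 over all transcripts in both. The split of the calls over all transcripts depends on the scaling. Without scaling beyond library size, the median of all transcripts was 0.23 and 0.26 for footprints and 0.16 and 0.24 for TE in ctrl and KO, and 684 transcripts were called lower and 1691 higher for footprints in ctrl, 1532 and 3766 in KO, 325 and 183 for TE in ctrl and 1192 and 2700 in KO. Each member remained lower there, with a log2 fold change of TE in KO of -3.47 (Eef2) to -0.72 (Eef1d).

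**Figure D2:**
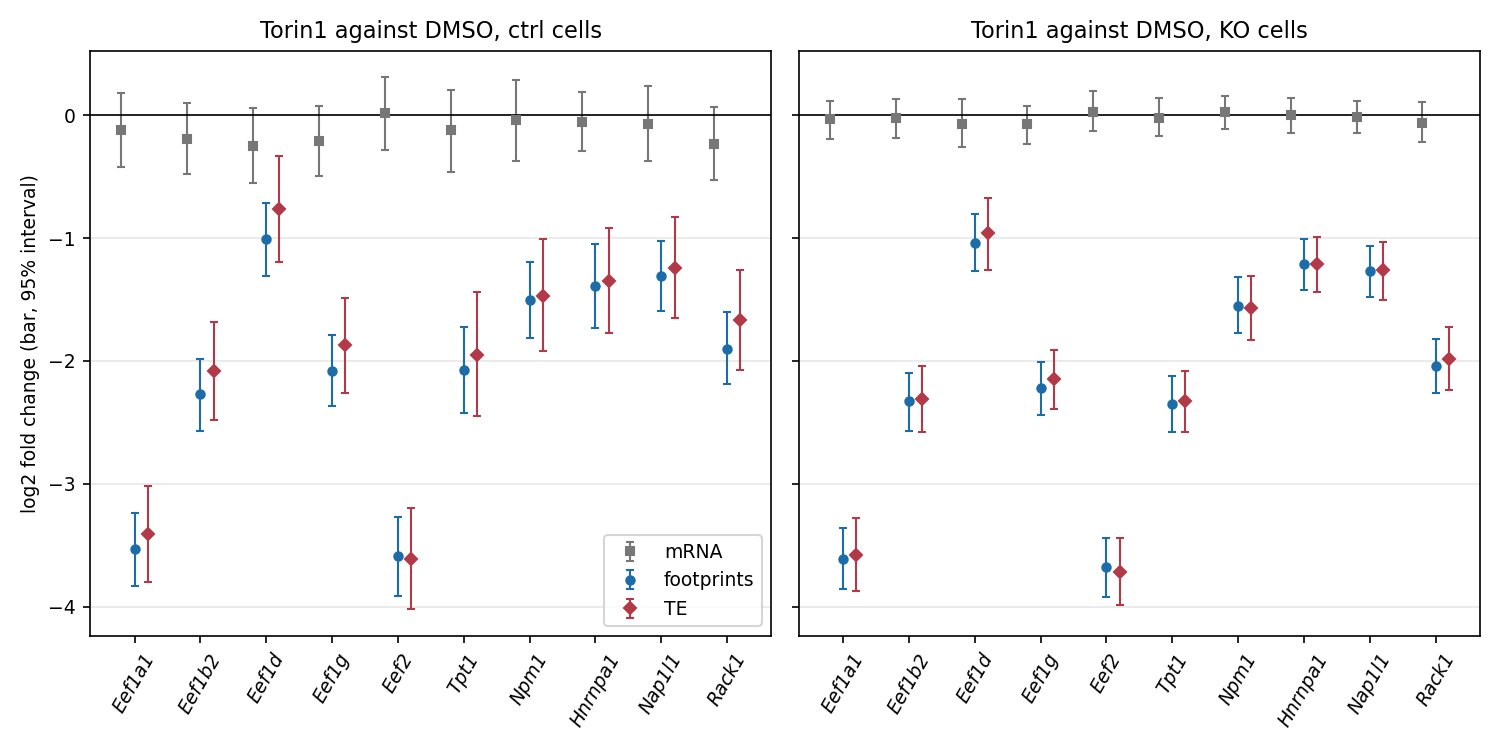
Log2 fold change of Torin1 against DMSO for mRNA (grey squares), footprints (blue circles) and TE (red diamonds) in ctrl cells (left) and KO cells (right), with 95% intervals of the edgeR fit. The mRNA intervals include 0 for all 10, and footprints and TE range from about -1 for Eef1d to about -3.6 for Eef1a1 and Eef2.

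The sizes of the fall are described without a test between members. The 95% intervals of Eef2 and Eef1a1 for footprints, -3.91 to -3.27 and -3.83 to -3.24 in ctrl, did not overlap those of any of the other 8 members in either cell population. In KO the intervals of Tpt1 (-2.58 to -2.12), Eef1b2 (-2.57 to -2.10), Eef1g (-2.44 to -2.01) and Rack1 (-2.26 to -1.82) overlapped each other and did not reach that of Npm1 (-1.77 to -1.32). In ctrl the intervals of Rack1 (-2.19 to -1.60) and Npm1 (-1.81 to -1.19) overlapped. That of Eef1d (-1.31 to -0.71) overlapped those of Npm1, Hnrnpa1 (-1.73 to -1.05) and Nap1l1 (-1.59 to -1.02) in ctrl. In KO it (-1.27 to -0.80) overlapped those of Hnrnpa1 (-1.42 to -1.01) and Nap1l1 (-1.48 to -1.06). In the labels the run names of the ribo-seq carry a lane code that is shared within a replicate number, so the change was also taken within each number. All 10 were lower with Torin1 within replicates 1 and 3 of ctrl and within replicates 1, 2 and 3 of KO, with a median log2 change over the 10 of -2.11 to -1.84.

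The mRNA of the 10 was not called changed with Torin1, where 2.73% of 10958 transcripts were called in ctrl and 9.97% of 11004 in KO. These shares moved with single libraries. In ctrl the share was 13.3% without DMSO replicate 3, 1.33% without DMSO replicate 1, 1.05%, 1.04% and 1.23% without Torin1 replicate 1, 2 and 3, 6.6% with DESeq2 and 12.1% with the replicate block. In KO it was 4.99% without DMSO replicate 1, 5.23%, 3.97% and 4.54% without Torin1 replicate 1, 2 and 3, and 16.3% with the replicate block. In both cells 0 of 10 had an unadjusted p under 0.05 in edgeR and 0 of 10 were called with DESeq2. The log2 fold changes were -0.25 (Eef1d) to 0.02 (Eef2, interval -0.28 to 0.31) in ctrl and -0.07 (Eef1d and Eef1g) to 0.03 (Eef2 and Npm1) in KO. In KO the widest interval was that of Eef1d, from -0.26 to 0.13. The ctrl DMSO libraries varied more than the others, with a coefficient of variation of 7.41 to 22.4% over the 10, against 1.02 to 7.40% in ctrl Torin1, 3.62 to 13.9% in KO DMSO and 1.22 to 6.48% in KO Torin1. For Rack1, ctrl DMSO was at 4378, 5693 and 4426 CPM and ctrl Torin1 at 4195, 3914 and 4228 CPM. Rack1 and Eef1g were the 2 members whose ctrl Torin1 mRNA lay wholly below ctrl DMSO, 2 of 10 where this held for 16% of 10958 transcripts, and ctrl DMSO replicate 2 was the highest library for both.

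The span of TE over the members was wider with Torin1 than in DMSO, and with Torin1 its low end was set by Eef2. In ctrl DMSO mean TE was highest for Hnrnpa1 (3.48), followed by Npm1 (1.98), Nap1l1 (1.74), Eef1a1 (1.26), Tpt1 (0.936), Eef1g (0.722), Eef1b2 (0.721), Eef1d (0.663), Eef2 (0.424) and Rack1 (0.416), an 8.37-fold span. In this order Npm1 and Nap1l1, Eef1g and Eef1b2, Eef1b2 and Eef1d, and Eef2 and Rack1 overlapped between libraries. In ctrl Torin1 the order was Hnrnpa1 (1.37), Nap1l1 (0.736), Npm1 (0.715), Eef1d (0.393), Tpt1 (0.247), Eef1g (0.197), Eef1b2 (0.170), Rack1 (0.132), Eef1a1 (0.118) and Eef2 (0.0348), a 39.4-fold span. Here the neighbours that overlapped were Nap1l1 and Npm1, Tpt1 and Eef1g, and Eef1g and Eef1b2. Eef1a1 went from place 4 to place 9 of 10, and Eef1d from place 8 to place 4. In KO cells the span was 7.68-fold in DMSO (Hnrnpa1 2.85, Eef2 0.371) and 43.7-fold with Torin1 (Hnrnpa1 1.25, Eef2 0.0286). The lowest member after Eef2 with Torin1 was Eef1a1, at 0.118 in ctrl and 0.125 in KO. In KO, Eef1a1 held the same places, 4 and 9, but overlapped its neighbours Nap1l1 in DMSO and Rack1 with Torin1. Other overlapping neighbours in KO were Npm1 and Nap1l1 in both treatments, Eef1d and Eef1g in DMSO, and Eef1b2 and Rack1 with Torin1. Eef1d stood between Tpt1 and Eef1g in KO DMSO and between Npm1 and Tpt1 in KO Torin1.

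**Figure D3:**
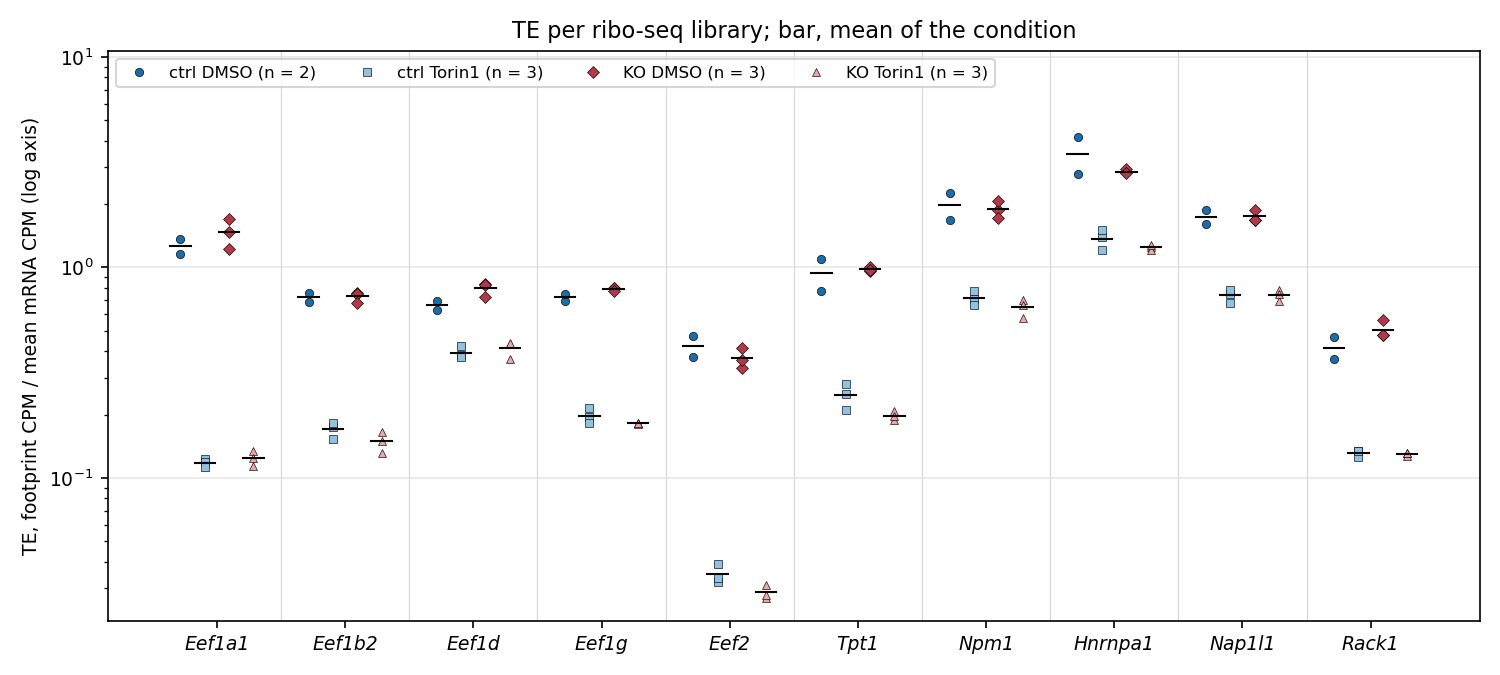
TE of the 10 mRNAs in each ribo-seq library, as footprint CPM over the mean mRNA CPM of the condition, on a log axis, with the mean of the condition as a bar. In DMSO the means lie between 0.371 and 3.48, and with Torin1 between 0.0286 and 1.37, with Eef2 well below the others.

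The comparison of KO with ctrl asks whether these mRNAs differed between the KO and the ctrl population. The replicates are passages of these populations. An effect of the loss of eIF4E3 therefore cannot be told apart from other differences between them. In DMSO no member was called for mRNA (0.0183% of 10924 transcripts called), footprints (0.0279% of 10757) or TE (0% of 10475), with 0 of 10 at an unadjusted p under 0.05 in edgeR for each and 0 of 10 called with DESeq2. The footprint differences in DMSO were -0.32 (Eef2, 95% interval -0.64 to 0.00) to 0.11 (Eef1a1, -0.22 to 0.44) on the log2 scale, with n = 2 against 3, so that a decrease of Eef2 as large as -0.64 lay within its interval. The TE differences were -0.30 (Hnrnpa1, -0.75 to 0.14) to 0.26 (Rack1, -0.21 to 0.72), and the mRNA differences -0.30 (Rack1, -0.63 to 0.02) to 0.04 (Npm1 and Nap1l1). With the replicate number as a block, Rack1 mRNA was called lower in KO in DMSO (log2 fold change -0.30, SE 0.0890, adjusted p = 0.0245), where 7.93% of the transcripts were called. The KO libraries were at 3757, 4271 and 3651 CPM and the ctrl libraries at 4378, 5693 and 4426 CPM, without overlap, as 6.86% of the transcripts had all KO libraries lower.

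With Torin1, footprints of Eef2 were lower in KO than in ctrl, with a log2 fold change of -0.39 (SE 0.108, adjusted p = 0.0208), that is 206, 235 and 213 CPM against 320, 264 and 275 CPM, lower in 3 of 3 libraries. This was 1 of 10 members called, and 6.03% of 10792 transcripts were called (4.01% lower), so the share of the members is near that of all transcripts. The share called was 3.86% without ctrl Torin1 replicate 1, 3.9% and 3.18% without KO Torin1 replicate 1 and 2, and 3.91% with DESeq2. The call was lost without ctrl Torin1 replicate 1 (-0.31, adjusted p = 0.115), KO Torin1 replicate 1 (-0.35, adjusted p = 0.0929) or KO Torin1 replicate 3 (-0.37, adjusted p = 0.0696). Eef1g at -0.24 and Rack1 at -0.16 also had all KO libraries below all ctrl libraries and did not pass the test (adjusted p = 0.175 and 0.368, edgeR). With Eef2 these were 3 of 10 members with all KO libraries lower, against 12.9% of 10573 transcripts. The other footprint differences were -0.30 (Eef1b2) to 0.10 (Nap1l1). In edgeR 4 of 10 members had an unadjusted p under 0.05 (Eef1b2, Eef1g, Eef2 and Tpt1, all lower in KO). The share of all transcripts under this unadjusted threshold was not counted, so an excess among the members cannot be read from it. Below 0 were 8 of 10 members, with a median of -0.11, while 50.6% of all transcripts were above 0. Of the mRNAs of 81 cytosolic ribosomal proteins, 63 were below 0 and 14 were called lower, with a median of -0.19. The cause was not tested.

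TE with Torin1 was not called different for any of the 10 (2.85% of 10509 transcripts called, 2 of 10 at an unadjusted p under 0.05 in edgeR, 0 with DESeq2). The differences were -0.31 (Tpt1, 95% interval -0.56 to -0.05) to 0.08 (Eef1a1, -0.11 to 0.28), with Eef2 at -0.27 (-0.50 to -0.04, adjusted p = 0.203). The share called for TE was 1.83% without RNA-seq KO Torin1 replicate 1, 1.78% and 1.69% without ribo-seq KO Torin1 replicate 1 and 2, and 4.81% with DESeq2. With the replicate block Tpt1 TE was called lower in KO (-0.31, SE 0.0893, adjusted p = 0.0393), where 5.15% of the transcripts were called. For mRNA with Torin1, where 1.96% of 11007 transcripts were called, 0 of 10 were called in edgeR, 3 of 10 had an unadjusted p under 0.05 and 0 were called with DESeq2. For TE and for mRNA, too, the share of all transcripts under the unadjusted threshold was not counted. The share called for mRNA was 0.922% and 0.0544% without ctrl Torin1 replicate 1 and 3, 1.05%, 0.572% and 0.389% without KO Torin1 replicate 1, 2 and 3, and 3.11% with DESeq2. The differences were -0.13 (Rack1, -0.24 to -0.03, adjusted p = 0.155) to 0.10 (Npm1). With the block Rack1 mRNA was again called lower in KO (-0.13, SE 0.0359, adjusted p = 0.019), where 9.46% of the transcripts were called. The KO Torin1 libraries were at 3851, 3660 and 3687 CPM and the ctrl Torin1 libraries at 4195, 3914 and 4228 CPM.

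**Figure D4:**
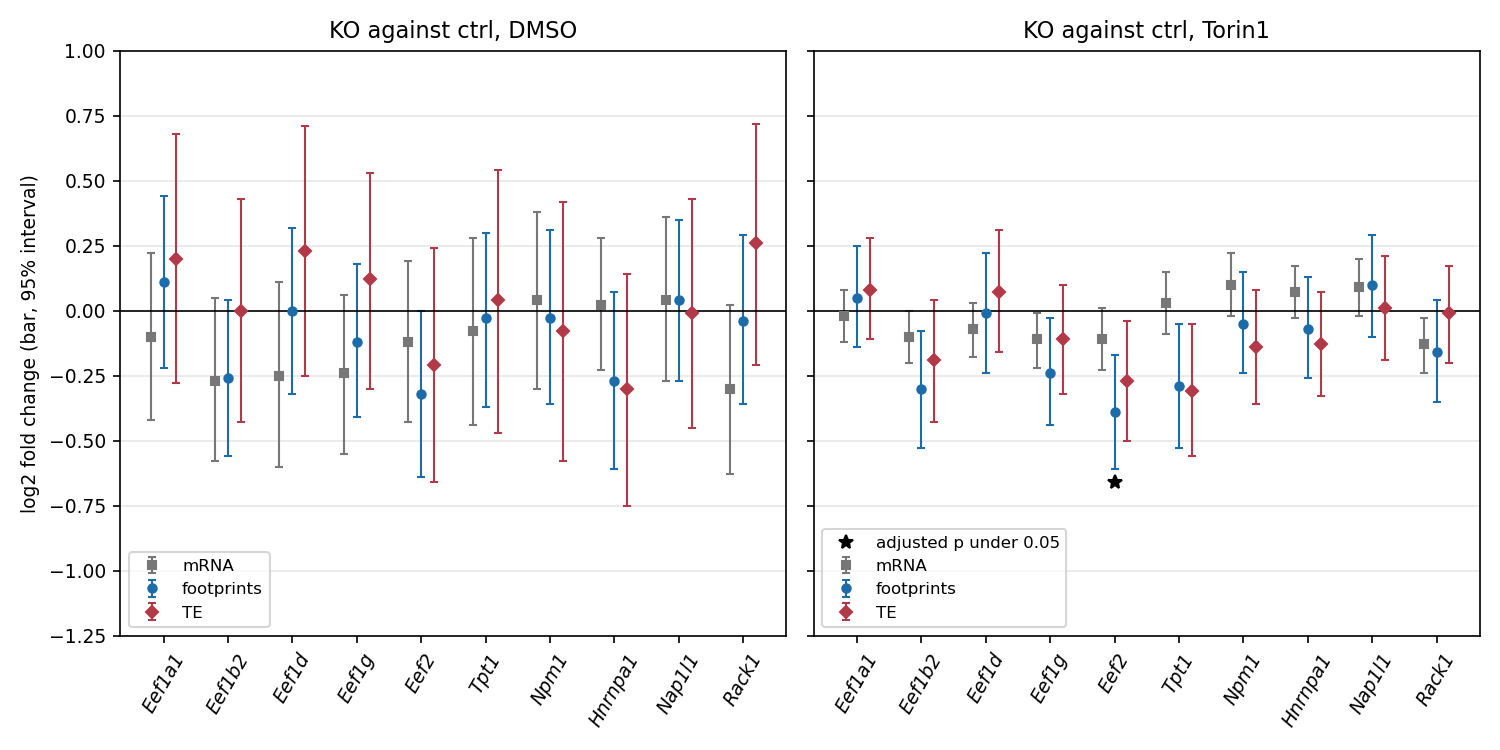
Log2 fold change of KO against ctrl for mRNA, footprints and TE in DMSO (left) and with Torin1 (right), with 95% intervals of the edgeR fit and a star under the value with an adjusted p under 0.05. The values lie between -0.39 and 0.26, and the star stands at the footprints of Eef2 with Torin1.

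Whether the change with Torin1 differed between KO and ctrl was tested as the interaction of genotype with treatment. It was called for 0 of 10 members for mRNA (0% of 11073 transcripts), for footprints (0.113% of 10662) and for TE (0% of 10443), in edgeR and in DESeq2, with 0 of 10 at an unadjusted p under 0.05. For footprints the interaction was -0.26 (Tpt1, 95% interval -0.65 to 0.14) to 0.20 (Hnrnpa1, -0.17 to 0.58) on the log2 scale, and for TE it was -0.35 (Tpt1, -0.91 to 0.21) to 0.16 (Hnrnpa1, -0.29 to 0.61). For Eef1a1 and Eef2 the intervals for footprints were -0.42 to 0.30 and -0.44 to 0.30. Below 0 were 8 of 10 members for footprints (median -0.05) and 8 of 10 for TE (median -0.15). Over all transcripts 47.3% were above 0 for footprints and 49.8% for TE. Of the mRNAs of 81 cytosolic ribosomal proteins, 60 were below 0 for footprints and 78 for TE, with medians of -0.08 and -0.26. For mRNA the interaction was 0.02 (Eef2) to 0.18 (Eef1d), above 0 in 10 of 10 members (Eef2 was at -0.02 without scaling beyond library size). Of all transcripts 47.8% were above 0, and the mRNAs of 81 cytosolic ribosomal proteins were at 0.00 to 0.31 with a median of 0.22, against a median of 0.10 for the members. The mRNA interactions of all members share the RNA-seq ctrl DMSO libraries. Of these libraries, replicate 2 was the highest for 6 of the members and replicate 1 for 4 (Hnrnpa1, Nap1l1, Npm1 and Tpt1). Whether this bears on the interaction was not tested.

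Other groups of translation genes gave a comparison for the members. Over all transcripts, footprints were called lower in 9.93% in ctrl and 22.1% in KO, and TE in 4.29% and 17.8%. Of 9 further TOP mRNAs, footprints were called lower in 9 of 9 in both cells, and TE in 6 in ctrl and 9 in KO, with a median log2 fold change of TE of -1.27 and -1.34. Among them Pabpc1, for the poly(A)-binding protein, had a TE change of -2.90 (SE 0.206) in ctrl and -3.11 (SE 0.154) in KO. The eIF3 subunit genes Eif3f and Eif3h were at -2.15 (SE 0.286) and -1.56 (SE 0.177) in ctrl and at -2.80 (SE 0.157) and -2.01 (SE 0.124) in KO. For 81 cytosolic ribosomal proteins, TE was called lower in 78 in ctrl and 80 in KO, with medians of -1.72 and -2.04, close to the -1.77 and -2.06 of the 10 members.

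Other translation factor genes were counted in the same way. Over all transcripts, TE was called lower in 4.29% in ctrl, and lower in 17.8% and higher in 10.6% in KO. Of 10 other elongation factor genes, TE was called lower in 1 in ctrl and in 3 in KO, and called higher in 1 in KO (Eif5a, 0.35, SE 0.124, adjusted p = 0.0351, named here after its value was seen). The call of Eif5a was lost (adjusted p = 0.0515 to 0.101) without RNA-seq KO DMSO replicate 2 or 3, RNA-seq KO Torin1 replicate 2 or 3, ribo-seq KO DMSO replicate 3 or ribo-seq KO Torin1 replicate 1. The 1 called lower in both was Eef1a2, the tissue-restricted paralog of Eef1a1, at -1.10 (SE 0.201, adjusted p = 0.00125) in ctrl and -1.27 (SE 0.127, adjusted p = 2.16e-08) in KO. No 30-nt stretch of the CDS of Eef1a1, or of any other member, was found in another of 20262 canonical transcripts. Only exact matches of this length were searched. Whether shorter reads, or reads aligned with mismatches, were shared between Eef1a1 and Eef1a2 was not tested. The mitochondrial elongation factor gene Tufm was at -0.42 (SE 0.189, adjusted p = 0.268) in ctrl and -0.73 (SE 0.131, adjusted p = 0.000158) in KO, and Eefsec, for the selenocysteine elongation factor, at 0.23 (SE 0.245, adjusted p = 0.705) and -0.55 (SE 0.19, adjusted p = 0.032). Of 6 termination and recycling genes, TE was called in 0 in ctrl, and in KO lower in 1 (Hbs1l, -0.46, SE 0.135) and higher in 2 (Pelo, 0.83, SE 0.155, and Gspt1, 0.38, SE 0.121). Without scaling beyond library size the calls of Eefsec (-0.30, adjusted p = 0.214) and Hbs1l (-0.22, adjusted p = 0.2) were lost. There 3 elongation factor genes were called higher in KO in place of 1 (Gfm1 and Gfm2 in addition), where 2700 of 10535 transcripts were called higher. Eif5a was called higher in ctrl there (0.65, adjusted p = 0.011). Pelo was called higher in ctrl there as well (0.87, adjusted p = 0.016), as it was with DESeq2 (0.72, adjusted p = 0.0368). Pelo was also called in ctrl (0.61 to 0.81) without RNA-seq ctrl DMSO replicate 2 or 3 or ribo-seq ctrl DMSO replicate 3, and Tufm (-0.54, adjusted p = 0.0398) without RNA-seq ctrl DMSO replicate 2. The call of Eefsec was lost on leaving out any 1 of 8 KO libraries (adjusted p = 0.0514 to 0.111), that is all except RNA-seq DMSO replicate 2 and Torin1 replicate 3 and ribo-seq DMSO replicate 1 and Torin1 replicate 2. The call of Gspt1 was lost without RNA-seq KO DMSO replicate 3, RNA-seq KO Torin1 replicate 2 or ribo-seq KO Torin1 replicate 3 (adjusted p = 0.0516 to 0.0684). With the replicate block, 5 elongation factor genes (Eef1e1 and Tsfm in addition) and 2 termination and recycling genes (Etf1 in addition) were called lower in KO. In that fit 2076 of 10535 transcripts were called lower.

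Of 9 genes for enzymes that modify elongation factors, TE was called in 0 in ctrl and in 1 in KO, against 4.68% and 28.4% of all transcripts. This was Eef2kmt, for the lysine methyltransferase of eEF2, at -0.83 (SE 0.288, adjusted p = 0.034), and the next by p, Dph5 of the diphthamide pathway and Eef1akmt1, a lysine methyltransferase of eEF1A, were at 0.37 and 0.39 (adjusted p = 0.0972 and 0.104). Without scaling beyond library size Eef2kmt was not called (-0.58, adjusted p = 0.116), and Dph5 and Eef1akmt1 were called higher (0.62 and 0.64, adjusted p = 0.00522 and 0.00635). The call of Eef2kmt was also lost without any 1 of 6 KO libraries (adjusted p = 0.0543 to 0.12), namely RNA-seq DMSO replicates 1 and 3, RNA-seq Torin1 replicate 2, ribo-seq DMSO replicate 1 and ribo-seq Torin1 replicates 2 and 3. Of 6 paralogs of members, Eef1a2 was again called lower in both cells and Hnrnpa2b1 was called higher in KO at 0.72 (SE 0.130, adjusted p = 0.000148), where its relative Hnrnpa1 fell by 1.21. Without scaling beyond library size 2 paralogs were called higher in KO (Hnrnpa3 in addition), where 2700 of 10535 transcripts were called higher. Npm3 was at -0.37 in KO (adjusted p = 0.0801, and 0.0493 with the replicate block), where Npm1 was at -1.57. The median TE change of the paralogs was -0.07 in ctrl and -0.08 in KO.

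**Figure D5:**
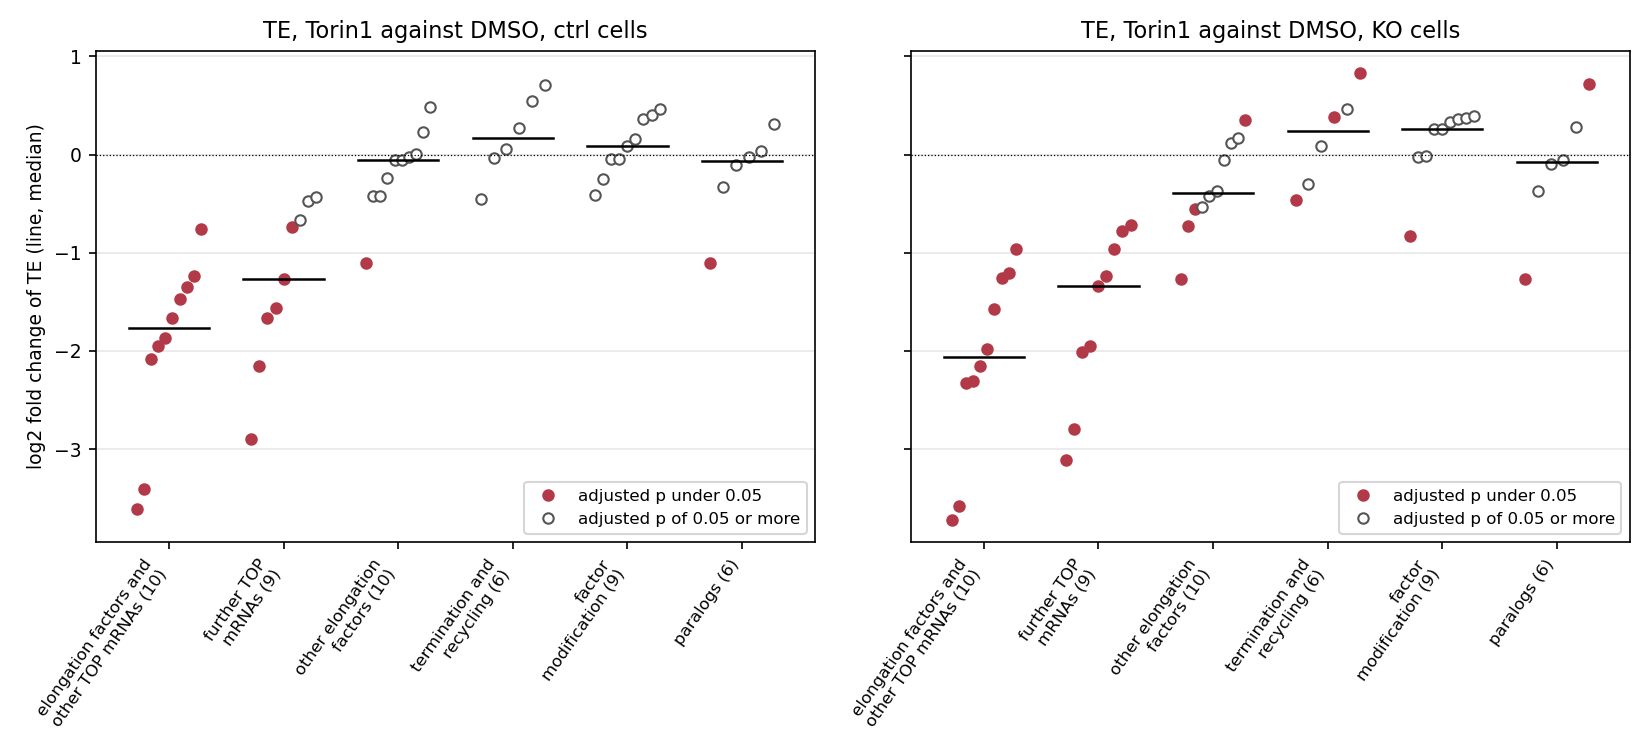
Log2 fold change of TE with Torin1 in ctrl cells (left) and KO cells (right) for the 10 mRNAs and 5 lists of related genes, 1 point per gene (filled, adjusted p under 0.05), with the median of each list as a line. The 10 mRNAs and the 9 further TOP mRNAs all lie below 0, and the other lists lie on both sides of it.

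The profile of the 10 across the 11 ribo-seq libraries was summarised as the mean of their log2 CPM after the mean of each transcript was removed, and each of 10680 transcripts was compared with it. The 5 transcripts of other genes that followed it most closely were Rpl3 (r = 0.9986), Rpl4 (0.9973), Rps6 (0.9972), Rpl10-ps3 (0.9962) and Rpl26 (0.9962), all named for ribosomal proteins. Rpl10-ps3 is named as a pseudogene, and its reads could be those of Rpl10. Among the members r was 0.9727 (Hnrnpa1) to 0.9980 (Eef1g), where each member is itself part of the mean it is compared with. These values are a description, since the libraries fall into Torin1 and DMSO groups.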

How the data were processed

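RNA-seq and ribo-seq of N2a cells were used as 12 and 11 libraries, grouped by their labels. Ribo-seq reads were trimmed by the authors with cutadapt. Reads of both assays were aligned with HISAT2 (mm10) and bowtie2 (canonical transcripts, Ensembl release 84). The 8 deposited tables hold raw counts for the CDS of each transcript, with a table for each assay and each pair of conditions, and a ribo-seq count is a riboWaltz P-site. Counting over the CDS leaves out reads in the leader and the 3′ UTR, and reads of processed pseudogenes in the genome could add to the counts of members. This was not tested. The authors' own edgeR results in these tables (log2 fold change, average log2 CPM, p-value, FDR) and 2 further tables with TE and its RiboDiff test were not used.

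The study's filter, which asks for CPM above 1 in every library of 1 condition or the other, was applied again and removed 86 to 1531 transcripts per table. Each pair of conditions was tested over all transcripts with edgeR 4.0.16 in R 4.3.3 (TMM, quasi-likelihood F-test, Benjamini-Hochberg adjustment, threshold 0.05). For TE the interaction between assay and condition was tested with TMM inside each assay, and genotype by treatment as an interaction over the 4 conditions. The SE is the log2 fold change divided by the root of F, and intervals are at 95%. Levels are CPM after TMM over all libraries of an assay. TE of a library is its footprint CPM over the mean mRNA CPM of its condition. Leaders and starts came from GENCODE mouse release 21 on GRCm38. The tests were checked on simulated counts. Figures were drawn with matplotlib 3.10.9 in Python 3.11.15.

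Each replicate is, per the labels, a different passage, so libraries of the same number may be paired, and the main tests leave this pairing out. Between libraries of the same number r of the deviations from the condition mean was -0.0378 to 0.668 for mRNA (median 0.12) and -0.0417 to 0.135 for footprints (median 0.0474). For other pairs it was -0.516 to 0.366 (median -0.0668) and -0.135 to 0.112 (median -0.0276). The study did not use a block, and it was run as an alternative, with DESeq2 1.42.0, no scaling beyond library size, no filter on low counts and leaving out each library. Where KO is set against ctrl in DMSO, the RNA-seq columns repeat replicate numbers and were used unnumbered.

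The members and the lists of related genes were chosen with earlier results of these data known, so their counts are no independent support. The rule names all 10 members in every comparison, called or not. For mRNA and for KO against ctrl the text gives the lowest, the highest and some other members, and the figures show all 10. From each list up to 3 genes with the smallest adjusted p for TE with Torin1 in KO cells are named, ribosomal proteins are given as counts and medians, and the 5 transcripts of other genes most like the mean profile of the members are named. Ribo-seq replicate 2 of ctrl DMSO is not analysed here. A marker of the neuronal list is not reported here.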

Additional observations from a re-analysis of the deposited data

How the results depend on the processing

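Footprints with Torin1 were called lower for 10 of 10 members in both cells under each of the 4 other settings (DESeq2, no scaling beyond library size, no filter on low counts, replicate block), and so was TE in KO. TE in ctrl gave 9 of 10 without scaling beyond library size, where Eef1d was at -0.60. Leaving out 1 ctrl DMSO library of the ribo-seq leaves 1 library there, which is assumed to vary like the other conditions. The genotype comparisons of footprints in DMSO rest on 2 ctrl libraries, the shallower of which has 669244 counts. Leaving out 1 library, the share of all transcripts called was 0 to 0.0911% for mRNA and 0.00925 to 0.0185% for footprints of KO against ctrl in DMSO, and for the interaction in footprints it was 0% without KO Torin1 replicate 1 and 0.468% without ctrl DMSO replicate 1.

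With the replicate block, the count of members called for KO against ctrl went from 0 to 1 for mRNA in DMSO and for mRNA with Torin1 (Rack1 in both), and from 0 to 1 for TE with Torin1 (Tpt1). The block changed no other count of members called. Leaving out 1 library, the count for footprints of KO against ctrl with Torin1 was 0 to 1. Among the related genes, TE in ctrl without scaling beyond library size was above 0 for Eef2kmt (0.12) and Npm3 (0.15), and leaving out 1 library gave -0.26 to 0.17 for Eef2kmt, -0.11 to 0.12 for Npm3 and -0.10 to 0.87 for Hnrnpa2b1, which was below 0 without ctrl DMSO replicate 1 of the ribo-seq and called higher without replicate 3.

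Over all members and comparisons, 18 of 600 values changed sign under another setting and 128 of 1380 when 1 library was left out. None of these was called in either fit, and the cause was not tested. Without scaling beyond library size, mRNA with Torin1 was at 0.01 for Npm1 and 0.00 for Hnrnpa1 in ctrl and at 0.01 for Tpt1 and Nap1l1 in KO, mRNA of KO against ctrl with Torin1 at 0.00 for Eef1a1, the interaction at -0.02 for Eef2 mRNA and 0.01 for Eef1d footprints, and TE of KO against ctrl at -0.02 for Tpt1 in DMSO and -0.01 for Nap1l1 with Torin1. With the replicate block, footprints of KO against ctrl in DMSO were at 0.01 for Tpt1 and Rack1 and -0.01 for Nap1l1, and the interaction was at 0.02 for Eef1d footprints. With DESeq2 and without the filter on low counts, TE of KO against ctrl in DMSO was at 0.01 for Eef1b2 and 0.00 for Nap1l1, and with DESeq2 the interaction was at -0.01 for Nap1l1 TE.

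Where leaving out 1 library changed a sign, the log2 values ranged as follows. For mRNA with Torin1 in ctrl it was -0.04 to 0.10 (Eef2), -0.30 to 0.01 (Tpt1), -0.15 to 0.15 (Npm1), -0.09 to 0.02 (Hnrnpa1) and -0.19 to 0.08 (Nap1l1). For mRNA with Torin1 in KO it was -0.06 to 0.02 (Eef1a1), -0.06 to 0.04 (Eef1b2), -0.12 to 0.05 (Eef1d), -0.01 to 0.09 (Eef2), -0.07 to 0.04 (Tpt1), 0.00 to 0.06 (Npm1), -0.03 to 0.04 (Hnrnpa1), -0.03 to 0.02 (Nap1l1) and -0.09 to 0.02 (Rack1). For mRNA of KO against ctrl in DMSO it was -0.25 to 0.04 (Tpt1), -0.07 to 0.22 (Npm1), -0.02 to 0.08 (Hnrnpa1) and -0.08 to 0.18 (Nap1l1). For mRNA of KO against ctrl with Torin1 it was -0.04 to 0.02 (Eef1a1) and -0.02 to 0.07 (Tpt1). For the interaction for mRNA it was 0.00 to 0.17 (Eef1a1), -0.06 to 0.07 (Eef2), -0.04 to 0.28 (Tpt1), -0.14 to 0.17 (Npm1), -0.03 to 0.09 (Hnrnpa1) and -0.10 to 0.17 (Nap1l1). For footprints of KO against ctrl in DMSO it was -0.01 to 0.22 (Eef1a1), -0.06 to 0.07 (Eef1d), -0.24 to 0.25 (Tpt1), -0.24 to 0.21 (Npm1), -0.54 to 0.05 (Hnrnpa1), -0.08 to 0.16 (Nap1l1) and -0.19 to 0.14 (Rack1). For footprints of KO against ctrl with Torin1 it was -0.01 to 0.11 (Eef1a1), -0.05 to 0.06 (Eef1d), -0.11 to 0.04 (Npm1) and -0.15 to 0.00 (Hnrnpa1). For the interaction for footprints it was -0.18 to 0.06 (Eef1a1), -0.12 to 0.04 (Eef1b2), -0.09 to 0.07 (Eef1d), -0.24 to 0.08 (Eef2), -0.25 to 0.18 (Npm1), -0.11 to 0.47 (Hnrnpa1), -0.06 to 0.16 (Nap1l1) and -0.31 to 0.03 (Rack1). For TE of KO against ctrl in DMSO it was -0.11 to 0.12 (Eef1b2), 0.00 to 0.19 (Eef1g), -0.17 to 0.32 (Tpt1), -0.28 to 0.16 (Npm1), -0.57 to 0.02 (Hnrnpa1) and -0.15 to 0.12 (Nap1l1). For TE of KO against ctrl with Torin1 it was -0.05 to 0.06 (Nap1l1) and -0.05 to 0.02 (Rack1). For the interaction for TE it was -0.24 to 0.08 (Eef2), -0.30 to 0.13 (Npm1), -0.15 to 0.42 (Hnrnpa1) and -0.12 to 0.15 (Nap1l1).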
